A study of Mus musculus with 25 samples.

Results

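Heat shock proteins and J-proteins were followed at the RNA level in mouse regulatory T cells (Treg) and conventional T cells (Tconv). Members were taken by gene symbol: the Hspa, Hspb, Hspd, Hspe, Hsph and Hsp90 names and the numbered Dnaja, Dnajb and Dnajc names, with a status of OK in all 25 libraries. The names matched 72 genes, and 71 were kept of 22985 symbols, 27 heat shock protein genes and 44 J-protein genes. Dnajb6 was left out because its status was not OK in every library. A member entered the tests when it reached 1 FPKM (fragments per kilobase of transcript scaled to the mapped fragments, a level per length) in at least 2 of the 21 libraries with grouped samples. By that filter 58 members were tested among 11532 genes. Of the rest, 12 stayed under 1 FPKM in every one of the 25 libraries, and 3 of those (Dnajc5b, Dnajc5g and Hspb3) were listed at 0 throughout.

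Chaperones bind unfolded stretches of other proteins and keep them from clumping until they fold. The Hsp70 proteins (Hspa genes) do this with ATP; J-proteins (Dnaj genes) bring them their clients and start the ATP cycle, and the Hsp110 proteins (Hsph1, Hspa4) reset it. Hsp90 proteins finish the folding of many kinases and receptors, small heat shock proteins (Hspb genes) hold unfolded proteins without ATP, and Hspd1 with Hspe1 forms the folding chamber of mitochondria. Heat and misfolded protein switch on part of the family through the factor Hsf1, while unfolded protein in the endoplasmic reticulum (ER) switches on another part. T cells that receive an antigen signal start to make protein at a higher rate, and kinases of that signal are among the known clients of Hsp90.

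All cells came from spleen and lymph node of C57BL/6 mice. Treg were wild type (WT, 4 resting libraries), or were labelled p65KO (3), c-RelKO (2) or DKO (2), where p65 is the product of Rela, c-Rel that of Rel, and DKO the loss of both of these NF-kB subunits. WT Tconv had 2 resting libraries. Stimulated cells had received antibodies to CD3 and CD28 at 2 µg/ml with IL-2 for 3 h, with 2 libraries each of WT Tconv, WT Treg and DKO Treg and 1 each of p65KO and c-RelKO Treg. A last set of 4 stimulated libraries, 1 per condition, came from a deletion experiment with the protein TAT-Cre: control Tconv, control Treg, Treg labelled FoxP3 del and Treg labelled NF-kB del. The promoter that drove recombination in the knockouts, the age of the mice and the number of mice behind a library are not stated in the labels. The p-values below therefore measure the spread between libraries, which may be technical. In bulk RNA, fewer cells of a type and less RNA per cell cannot be told apart.

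The libraries held 15.4 to 52.8 M fragments by the depth implied by the tables. Rel lay at 27.5, 200, 271 and 252 FPKM in WT Treg replicates 1 to 4, at 2.09 and 1.76 in c-RelKO Treg and at 2.06 and 1.96 in DKO Treg. Rela checked the p65KO label only weakly, with 58, 69.3 and 79.8 FPKM in p65KO Treg and 64.9, 99.1 and 124 in the WT library run alongside. In resting DKO Treg Rela stood at 76.1 and 56.3 FPKM, against 130 and 124 in the WT libraries run alongside. In stimulated DKO Treg it stood at 107 and 99.0 against 126 and 118, so it checked that label only weakly as well. Foxp3, the lineage factor of Treg, lay at 129 to 351 FPKM in WT Treg, at 0.54 to 0.93 in Tconv and at 8.01 and 21.2 in resting DKO Treg. In the library labelled FoxP3 del it stood at 266 against 86.7 in control Treg, against the label. Among the 21 grouped libraries, B cell markers were highest in 3. The mean log2(FPKM + 1) of 8 B cell genes was 2.92 in WT Treg replicate 1, 1.62 in p65KO Treg replicate 1 and 4.28 in c-RelKO Treg replicate 2, the last with a mean of 9.0 over 5 erythroid genes. The mean of 9 myeloid genes was 3.71 and 4.20 in the first and the last of these, and also 3.25 in p65KO Treg replicate 3 and 3.01 in c-RelKO Treg replicate 1. Erythroid genes were raised in 2 more libraries, with means of 3.97 in WT Treg replicate 2 and 3.76 in stimulated DKO Treg replicate 2. The remaining grouped libraries had erythroid means of 0.42 to 2.15. Both of the 2 were kept in every fit without the 3 libraries, and the part of such cells was not tested. The B cell mean of the 18 libraries outside those 3 lay between 0.35 and 1.25. Main counts that change without the 3 libraries with B cell markers are given with both values.

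The numbers of these 21 libraries in the labels fall into 4 runs of consecutive numbers, and each run held only some of the groups: run 1 and run 2 held 1 WT and 1 p65KO Treg library each, and runs 3 and 4 the other 17. The labels do not say what a run is. Of the 58 members, 46 differed between runs with the groups held fixed (limma, F test, adjusted p under 0.05), beside 77.6% of all genes tested. All 8 stress-inducible members differed between runs, and 7 of 8 constitutive members did. Each comparison is therefore given without the run and with the run as a block.

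The family spanned the whole range of expression in these cells. Hsp90ab1, the constant form of Hsp90, was the most abundant member with a mean of 1277 FPKM over 21 libraries. Hspa8, the constant cytosolic Hsp70, followed at 815, Hspa5, the Hsp70 of the ER, at 524, and Hsp90b1, the Hsp90 of the ER, at 204. Hspa9, the mitochondrial Hsp70, stood at 133. Of the stress-inducible set, Hsp90aa1 was abundant, with a mean of 169. The summed level of Hspa1a and Hspa1b, the heat-inducible Hsp70 genes, ran from 0.366 to 149 FPKM over the same libraries. Hspa1a (chr17:35106303-35109101, build mm9) and Hspa1b (chr17:35093373-35096183) are near-identical neighbours, so the split of reads between them is uncertain and their sum is given beside them.

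Promoter sequence is printed for chosen members that each hold a match to short elements known to drive stress responses. It is not a list of the most changed members. Dnajb4, which held TTCNNGAA, is not printed, nor are Dnajb2 and Dnajc15, which had no match to the motifs searched. Hsph1 and Hspd1 had 2 promoter entries each, and the entry with most matches before the start is printed. The sequences are the 250 bases before the RefSeq start in GRCm38.p6, another build than that of the expression files, printed 5′ to 3′ on the gene's strand. Capitals mark heat shock element cores (GAANNTTC or TTCNNGAA) in the first 4 and ER stress response elements (CCAAT, 9 bases of any kind, then CCACG, on either strand) in Hspa5 and Hsp90b1.
Hspa1a (chr17:34972157-34972406, minus strand): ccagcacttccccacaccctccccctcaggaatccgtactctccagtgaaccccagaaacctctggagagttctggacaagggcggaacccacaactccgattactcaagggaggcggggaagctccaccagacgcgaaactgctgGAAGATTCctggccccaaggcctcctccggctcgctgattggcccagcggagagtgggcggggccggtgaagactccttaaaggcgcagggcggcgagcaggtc
Hspb1 (chr5:135887669-135887918, plus strand): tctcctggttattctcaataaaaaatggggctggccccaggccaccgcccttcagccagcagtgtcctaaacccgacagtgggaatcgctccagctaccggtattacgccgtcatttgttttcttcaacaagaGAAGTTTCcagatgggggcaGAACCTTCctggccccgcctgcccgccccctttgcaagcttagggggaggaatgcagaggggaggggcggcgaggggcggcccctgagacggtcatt
Hsph1 (chr5:149636337-149636586, minus strand): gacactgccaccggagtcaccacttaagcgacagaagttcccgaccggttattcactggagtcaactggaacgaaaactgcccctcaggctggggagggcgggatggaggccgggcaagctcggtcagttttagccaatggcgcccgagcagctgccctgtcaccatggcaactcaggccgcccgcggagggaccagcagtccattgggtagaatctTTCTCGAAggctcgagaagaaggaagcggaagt
Hspd1 (chr1:55087933-55088182, minus strand): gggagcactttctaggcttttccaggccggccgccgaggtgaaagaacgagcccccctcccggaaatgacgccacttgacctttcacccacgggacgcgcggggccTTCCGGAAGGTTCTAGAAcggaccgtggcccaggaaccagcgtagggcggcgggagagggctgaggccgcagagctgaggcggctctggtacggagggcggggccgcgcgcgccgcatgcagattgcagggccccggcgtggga
Hspa5 (chr2:34771840-34772089, plus strand): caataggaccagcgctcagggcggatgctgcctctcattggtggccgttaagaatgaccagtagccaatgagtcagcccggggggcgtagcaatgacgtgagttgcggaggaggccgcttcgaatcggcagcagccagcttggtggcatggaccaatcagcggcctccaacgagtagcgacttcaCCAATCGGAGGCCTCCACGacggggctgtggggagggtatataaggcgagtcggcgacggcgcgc
Hsp90b1 (chr10:86705445-86705694, minus strand): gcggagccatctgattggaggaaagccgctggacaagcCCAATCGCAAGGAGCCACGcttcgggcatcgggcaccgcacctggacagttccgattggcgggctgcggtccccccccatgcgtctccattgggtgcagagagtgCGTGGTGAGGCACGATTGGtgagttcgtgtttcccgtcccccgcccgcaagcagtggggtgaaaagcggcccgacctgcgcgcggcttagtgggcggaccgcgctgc
In Hspd1, 3 overlapping cores form 1 run of alternating units that begins 144 bases before the start. Hspd1 and Hspe1 are transcribed away from each other, and their promoter windows share 285 bases, so these cores lie in both. Windows of Hspa1a and Hspa1b that run on to 50 bases after the start match at 296 positions, 98.7% of their length, with the core at 104 bases before the start in each.

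Over the 57 members with a promoter entry, searched from 250 bases before to 50 after each start on both strands, GAANNTTC occurred in 13, beside 9.036% of 27025 symbols. It lay in 5 of the 7 stress-inducible members with an entry: Hspa1a, Hspa1b, Hspb1, Hsph1 and Dnaja1. The other order of the core, TTCNNGAA, occurred in 5 members (9.599% of all symbols), and both orders overlapping by 3 bases in Hspd1, Hspe1 and Hsph1 (0.662%). The ER element occurred in Hspa5, Hsp90b1 and Dnajc3 (0.137%). TATAAA occurred in Dnajc19, Dnajc24, Hspb3 and Hspb6 (15.667%). A match is a run of letters and was not tested as a binding site.

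Resting Treg were compared with resting Tconv to ask which chaperones differ between the lineages before a signal. The stress-inducible genes stood higher in Treg than in Tconv of the same run. The sum of Hspa1a and Hspa1b was 21.8 and 23.1 FPKM in Tconv and 17.9, 99.2, 69.2 and 65.7 in WT Treg replicates 1 to 4. Treg replicate 1 lay below both Tconv libraries and the other 3 lay above them. Hspb1, a small heat shock protein that binds unfolded protein and actin, was at 0.162 and 0.164 FPKM in Tconv and at 1.59, 2.00, 2.21 and 2.52 in Treg, with no overlap. It rose by 1.40 ± 0.21 (SE) in log2(FPKM + 1), a scale that understates the change of low genes (limma, adjusted p = 0.000617). Here and below, a lack of overlap describes the values and is no test. Groups this small can separate by chance, and the share of all genes without overlap was not worked out.

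Of the 58 members, 3 rose and 3 fell in Treg, 10.3% of those tested, beside 12.6% of all genes. Hspd1 rose by 0.92 ± 0.21 in log2(FPKM + 1) (adjusted p = 0.00995) and Dnajc27, a J-protein with a Rab-like domain, by 0.52 ± 0.16 (adjusted p = 0.0453). Dnajc28, Dnajc6 (the auxilin that uncoats clathrin vesicles) and Hspb6 were lower, by log2 differences of -1.01 ± 0.17, -0.84 ± 0.20 and -0.72 ± 0.21 (adjusted p = 0.00186, 0.0153 and 0.0347). Once the run was a block, 23 members rose and 13 fell, beside 45.8% of all genes. The count without the block depended on WT Treg replicate 1 and on each Tconv library: 15 members passed without that Treg library, and 3 and 2 passed without Tconv replicate 1 and replicate 2. It was 21 without the 3 libraries with B cell markers.

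The 8 stress-inducible members moved together within runs. Without the block only Hspb1 passed the test, and the median log2 difference of the 8 was 0.79, beside 0.00 over all genes. Within run 3 and within run 4 all 8 were higher in Treg, with medians of 1.09 and 1.16. Of all 11532 genes, 4723 and 5146 were higher in Treg in these runs, with medians of -0.11 and -0.06. With the run as a block all 8 rose, from 0.37 for Dnajb1, the main J-protein partner of the inducible Hsp70, to 2.04 for Hspa1b. Hspa1a rose by 1.79, Hsp90aa1, the inducible Hsp90, by 1.13, Dnajb4 by 1.07, Hsph1 by 0.94 and Dnaja1 by 0.65. The list median was then 1.1, beside -0.07 over all genes. Without the 3 libraries, 6 of 8 rose without the block and 8 of 8 with it. Of 13 immediate early genes, which answer both cell handling and T cell receptor signals, 3 rose without the block (Jun by 2.61, Dusp1 by 1.45 and Zfp36 by 1.03). With it 12 rose and 1 fell, with a median of 1.48, larger than the 1.1 of the chaperone list, and their part in the chaperone difference was not tested. Of all genes 12.6% were called without the block and 45.8% with it.

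Other roles had calls in both directions. In the fit blocked on the run, 4 of 8 constitutive members rose and 1 fell, 4 of 10 ER members rose and 1 fell, and 3 of 8 mitochondrial members rose and 3 fell, beside the 45.8% of all genes called in that fit. Without the block 1 mitochondrial member (Hspd1) rose and 0 constitutive and 0 ER members passed. Dnajc6 stood at 2.14 and 2.36 FPKM in resting Tconv and at 1.28, 0.975, 0.629 and 0.497 in WT Treg, and Dnajc28 at 2.65 and 3.01 and at 1.36, 0.492, 0.886 and 0.967. Both Tconv libraries lay above every Treg library for these genes.

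**Figure D1:**
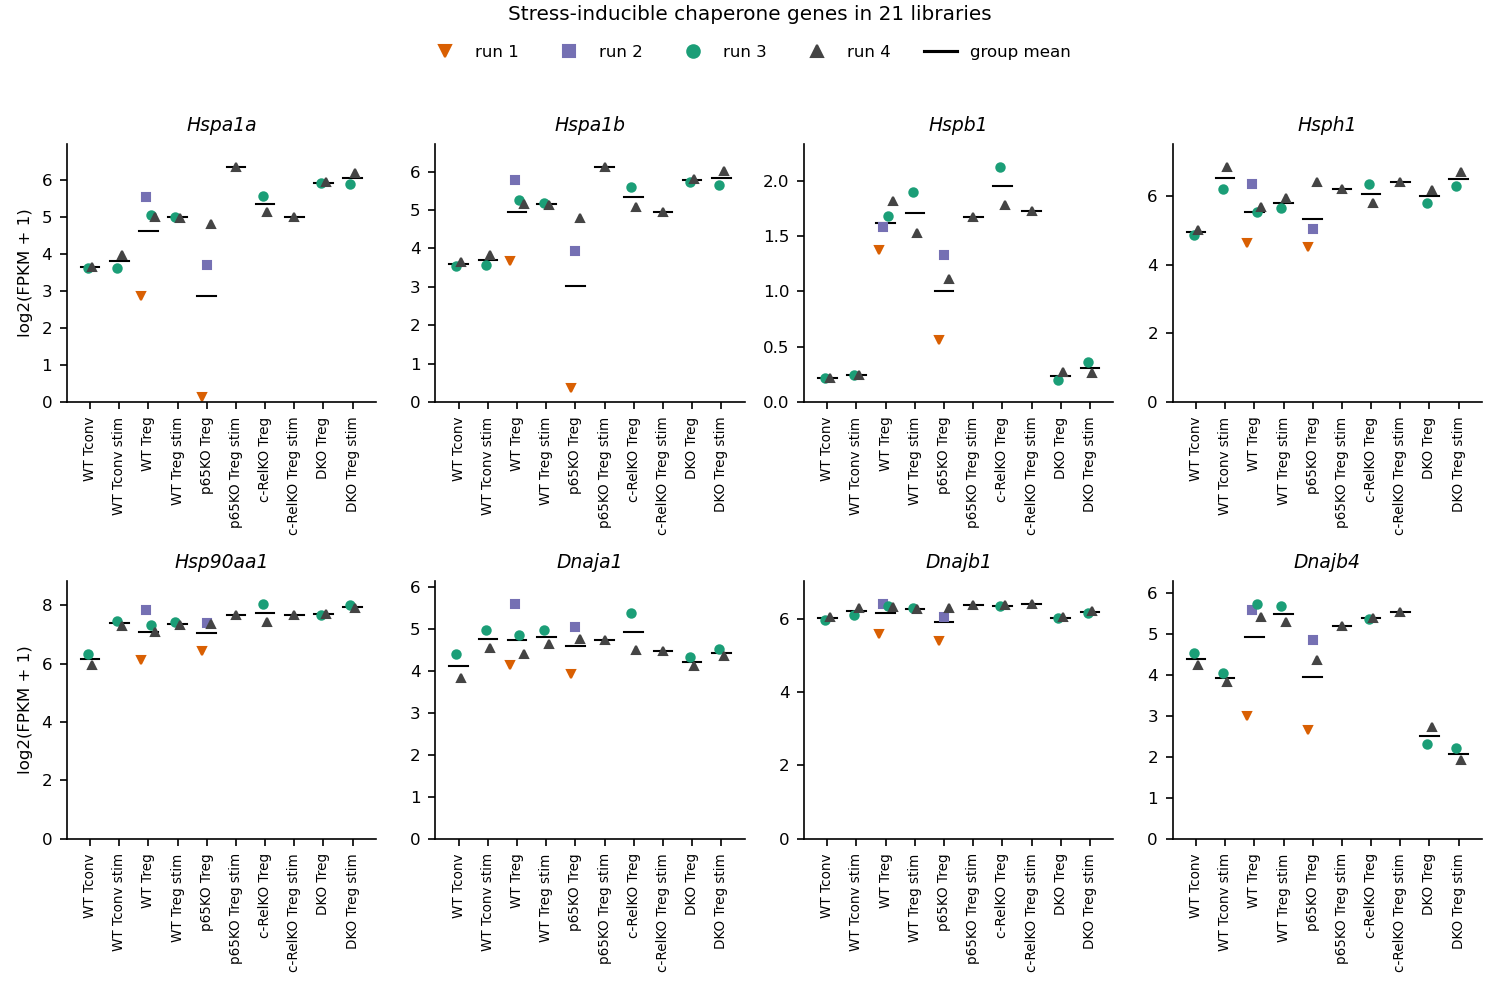
Level of the 8 stress-inducible chaperone genes as log2(FPKM + 1) on the vertical axis, by group on the horizontal axis. Each point is 1 of 21 libraries, its shape and colour give the run, and the bar is the group mean. Hspa1a was lowest in the run 1 libraries, and Dnajb4 and Hspb1 were low in resting and stimulated DKO Treg.

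Stimulated and resting cells were then compared within each cell type. In Tconv, chaperones of the cytosol and of mitochondria rose within 3 h. Hspd1, the chamber protein of mitochondria, stood at 39.6 and 29.8 FPKM at rest and at 120 and 110 after stimulation, without overlap. It rose by 1.71 ± 0.24 in log2(FPKM + 1) (limma, adjusted p = 0.000558). Hspa9, which pulls proteins into mitochondria and then hands some of them on to that chamber, went from 84.7 and 71.1 to 183 and 186 FPKM, a rise of 1.24 ± 0.34 (adjusted p = 0.0306). Hspa8 went from 502 and 402 to 1058 and 1018 FPKM (1.21 ± 0.31, adjusted p = 0.0223). In all 3 genes both stimulated libraries lay above both resting ones, which with 2 libraries a side can readily occur by chance.

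In all, 7 members rose and 2 fell in stimulated Tconv (15.5% of those tested), beside 11.9% of all genes. Dnajc2, a J-protein that sits on the ribosome, rose by 1.04 ± 0.17 (adjusted p = 0.00133), and its Hsp70 partner there, Hspa14, by 0.58 ± 0.18 (adjusted p = 0.0469). Dnajc27 and Dnaja2, a general cytosolic J-protein, also rose, by 0.93 ± 0.18 and 0.61 ± 0.18. The members that fell were Hspb6, from 4.58 and 3.64 to 1.19 and 1.60 FPKM (-1.09 ± 0.24, adjusted p = 0.00919), and Dnajc28 (-0.93 ± 0.20, adjusted p = 0.0081). With a single library of either arm left out, 3 or 4 members passed, and 16 passed without the 3 libraries with B cell markers, none of which is a Tconv library.

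In stimulated Tconv 20 members rose and 9 fell once the run was a block, beside 43.1% of all genes. The genes added included Hspa5, from 240 and 227 to 607 and 542 FPKM (1.29, adjusted p = 0.000184). Hsp90aa1 went from 80.1 and 60.7 to 176 and 155 FPKM (1.23, adjusted p = 0.000281). Hsph1 went from 28.2 and 31.2 to 72.8 and 113 FPKM (1.58, adjusted p = 0.00534). The inducible Hsp70 genes did not pass: the sum of Hspa1a and Hspa1b was 21.8 and 23.1 FPKM at rest and 22.3 and 27.8 after stimulation, which overlap. Their log2 differences were 0.16 ± 1.09 and 0.11 ± 1.0 (adjusted p = 0.977 and 0.988). By role, 4 of 8 constitutive, 2 of 8 mitochondrial, 0 of 10 ER and 0 of 8 stress-inducible members rose without the block, and 6, 4, 3 and 3 with it. Of all genes 11.9% were called without the block. Hsp90aa1 and Hsph1 also rose without the block when the 3 libraries were left out (adjusted p = 0.00263 and 0.0191), 2 of 8 stress-inducible members. The median log2 differences without the block were 0.64, 0.46, 0.03 and 0.18, beside -0.09 over all genes.

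Genes outside the family with related work were taken from lists by function. Their counts in stimulated Tconv stand beside 11.9% of all genes called. Of 10 genes of mitochondrial import and folding, 3 rose in stimulated Tconv: Tomm40 by 0.99, Timm23 by 0.96 and Timm50 by 0.80, all pore or receptor parts of the import machines. Of 24 tested heat shock factors and co-chaperones, 4 rose: Ppid by 1.26, Cacybp by 1.05, Bag5 by 0.94 and Hspbp1 by 0.60. Of the 13 immediate early genes, 2 rose, Egr1 by 5.17 and Zfp36 by 1.74.

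In WT Treg no member passed the test after the same stimulus. Hspd1 was at 57.2, 86.6, 60.5 and 63.2 FPKM at rest and at 71.2 and 81.3 after stimulation, which overlap. Hspa8 was at 537, 1004, 848 and 695 at rest and at 859 and 775 after. limma called 0 of 58 members, beside 0% of all genes (0 of 11532). At an unadjusted p under 0.05 there were 1 member and 311 genes. With the run as a block the count was again 0, beside 0% of all genes. Of the 13 immediate early genes 0 passed in either fit. Their median log2 difference was 0.383 without the block and 0.111 with it, beside -0.095 and -0.033 over all genes.

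The responses of Treg and Tconv were compared directly by the difference of the stimulation effects. In WT Treg 0 of 11532 genes were called after stimulation in either fit. A response weaker in these chaperones and one weaker over all genes therefore cannot be told apart here. Hspd1 differed, by -1.51 ± 0.32 in log2 (Treg minus Tconv, limma, adjusted p = 0.0402), and was the only member to do so without the block, beside 1.03% of all genes. With the run as a block the value was -1.56 (adjusted p = 0.00512) and 16 members differed, 14 downwards and 2 upwards (27.6% of those tested), beside 16% of all genes. Among the 14 were Hsph1 (-1.67), Hspa5 (-1.18), Hspa8 (-1.16), Hsp90aa1 (-1.14), Hspa9 (-1.0) and Dnajc2 (-0.96). The pair that differed upwards was Hspb6 (0.88) and Dnajc28 (0.56), which fell in Tconv. Without the 3 libraries 3 members differed without the block. The call of Hspd1 without the block rested on the full set of libraries: it was lost, and 0 members differed, when any 1 library was left out except WT Treg replicate 1 or replicate 3, and also with size factors or no filter on low values. Its adjusted p ran from 0.031 to 0.246 with 1 library left out, and its difference from -1.31 to -1.71.

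**Figure D2:**
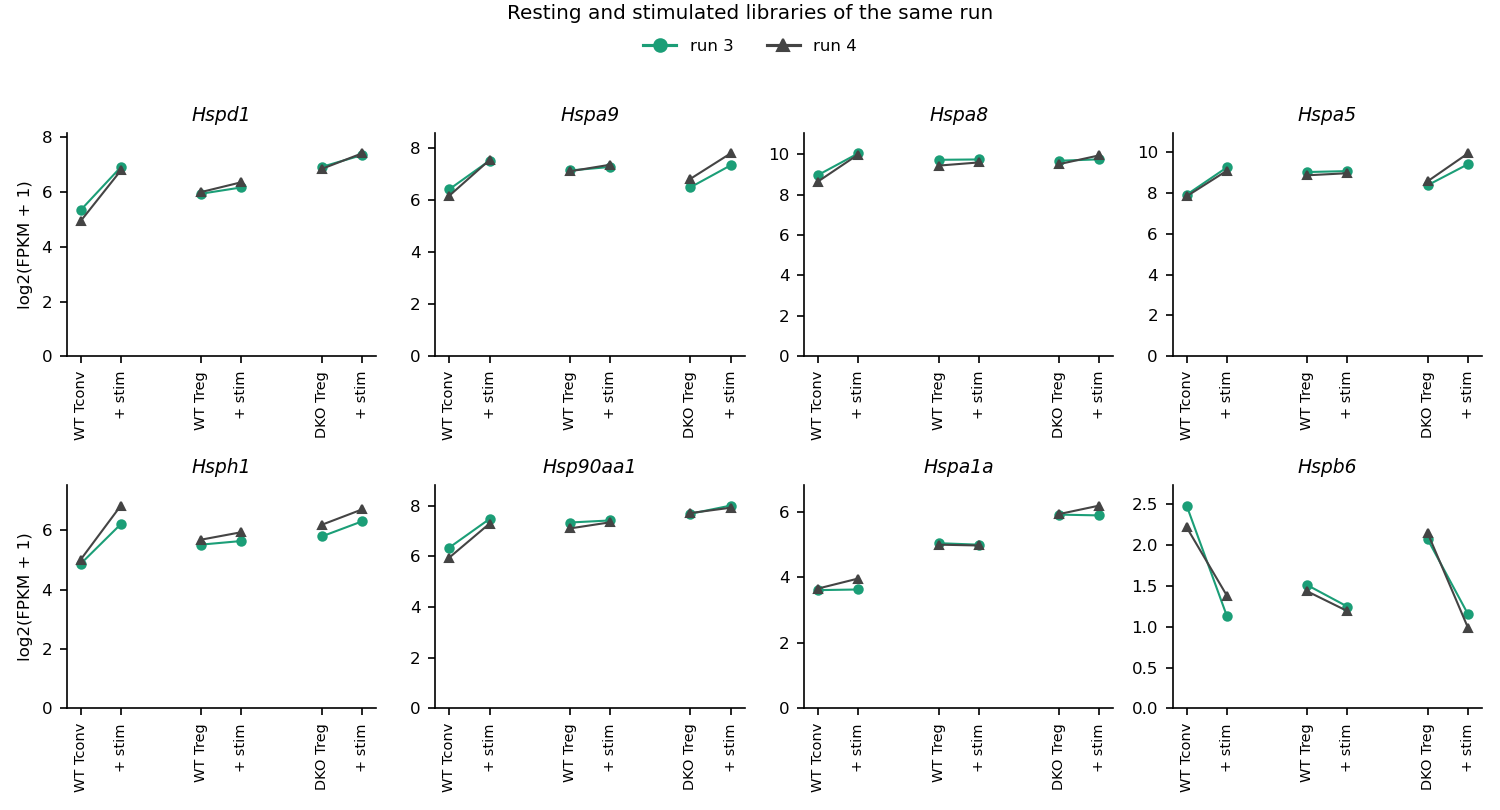
Level of 8 members as log2(FPKM + 1) on the vertical axis in resting and stimulated (+ stim) libraries of the same run. Lines join the resting to the stimulated library for WT Tconv, WT Treg and DKO Treg in run 3 (circles) and run 4 (triangles). Hspd1 climbed in Tconv from 39.6 and 29.8 to 120 and 110 FPKM and had shallower lines in WT Treg.

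In DKO Treg 1 member rose and 1 fell after stimulation. Dnajc27 rose by 0.65 ± 0.18 in log2(FPKM + 1) (limma, adjusted p = 0.036) and Hspb6 fell, from 3.18 and 3.41 FPKM to 1.22 and 0.983 (-1.03 ± 0.24, adjusted p = 0.0158), 2 of 58 members beside 9.99% of all genes. The count was 0 or 1 with a single library of either arm left out, and 5 without the 3 libraries. Blocking on the run, 9 rose and 8 fell, beside 42.1% of all genes. Hspa5 went from 332 and 380 FPKM to 677 and 979 (1.19, adjusted p = 0.000377), and Hspa9 from 89.2 and 112 to 161 and 222 (0.91). Dnaja3, a J-protein of mitochondria, rose by 0.75 and Dnajc11, of the same organelle, by 0.44. All 4 J-proteins of the ER membrane that face the cytosol (Dnajb12, Dnajb14, Dnajc14 and Dnajc18) fell in that fit.

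The difference of the responses of DKO and WT Treg gave 0 of 58 members without the block in limma's test, beside 0.971% of all genes. At an unadjusted p under 0.05 there were 1 member and 1197 genes. With the run as a block, Hspa5 (1.08, adjusted p = 0.0163) and Hspa9 (0.68, adjusted p = 0.0376) had the larger response in DKO Treg and Hspb6 (-0.82, adjusted p = 0.0202) the lower one, beside 14% of all genes.

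Resting DKO Treg were compared with resting WT Treg to ask what differs in cells labelled as lacking both NF-kB subunits. Rela itself missed the threshold without the block (limma, adjusted p = 0.0515) and passed with it (adjusted p = 6.86e-05). In stimulated cells Rela passed in neither fit (adjusted p = 0.513 and 0.115). Dnajb4, an inducible J-protein of the cytosol, stood at 3.95 and 5.67 FPKM in DKO Treg and at 6.99, 47.7, 52.4 and 41.6 in WT Treg replicates 1 to 4. Both DKO libraries lay below every WT library, with replicate 1 the nearest. It fell by 2.42 ± 0.66 on the log2 scale (limma, adjusted p = 0.013). Dnajb2, which steers misfolded proteins to the proteasome, stood at 4.66 and 4.79 FPKM against 9.57, 19.5, 21.1 and 20.0, again without overlap (-1.64 ± 0.39, adjusted p = 0.00569). Hspb1 stood at 0.149 and 0.203 against 1.59 to 2.52 FPKM (-1.38 ± 0.21, adjusted p = 0.000229), beside 0.162 and 0.164 in Tconv. The mean log2(FPKM + 1) of 3 Treg markers, Foxp3 among them, was 5.47 and 6.04 in resting DKO Treg, 7.15 to 8.10 in WT Treg and 2.40 and 2.51 in Tconv. For Hspb1, fewer Treg in the DKO libraries and a lower level per cell cannot be told apart. Dnajb4 stood at 22.3 and 18.0 FPKM and Dnajb2 at 16.8 and 18.1 in resting Tconv, so both DKO libraries lay below every WT Treg and every Tconv library for these genes.

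Of the 58 members, 7 rose and 6 fell in DKO Treg (22.4% of those tested), beside 33% of all genes. The other members that fell were Dnajc27 (3.34 and 2.30 FPKM against 6.26 to 7.19), Dnaja4 (8.27 and 7.91 against 10.3 to 16) and Dnajc5, the J-protein of secretory vesicles (-0.32 ± 0.11, adjusted p = 0.0431). Those that rose included a pair of ER genes. Dnajb11, the J-protein that serves Hspa5 in the ER, stood at 100 and 112 FPKM against 49.7 to 58.4 (0.91 ± 0.16, adjusted p = 0.000804), and Hsp90b1 at 218 and 349 against 155 to 177 (0.74 ± 0.23, adjusted p = 0.0236). In both, each DKO library lay above every WT library. Dnajc9, a histone chaperone, stood at 97 and 154 against 48.3 to 70.2 FPKM (1.09 ± 0.20, adjusted p = 0.00091). Hspa14, Hspd1 and Dnajc2 rose by 0.83, 0.82 and 0.59.

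Dnajc15, a J-protein of the inner mitochondrial membrane, stood at 70.1 and 92.2 FPKM in DKO Treg and at 59.95, 40.0, 13.4 and 15.7 in WT Treg replicates 1 to 4. The 4 WT values split by run, with those of runs 1 and 2 above those of runs 3 and 4. It rose by 1.55 ± 0.50 (adjusted p = 0.0297), and by 1.93 (adjusted p = 0.00171) without the 3 libraries. The inducible Hsp70 genes did not pass the test: the sum of Hspa1a and Hspa1b was 112 and 116 FPKM against 17.9, 99.2, 69.2 and 65.7, with each DKO library above every WT library, and Hspa1a had a log2 difference of 1.32 ± 0.95 (adjusted p = 0.307). Within the stress-inducible list 0 rose and 2 fell (Dnajb4 and Hspb1). Without the 3 libraries Hspa1a rose by 0.735 (adjusted p = 0.0457) and Dnajb1 fell by 0.32 (adjusted p = 0.0273), so that 1 rose and 3 fell, and 2 rose and 4 fell with the block as well. With all libraries, 2 rose and 1 fell among the 8 constitutive members, 2 rose among the 8 mitochondrial and 2 among the 10 ER members. These counts stand beside 33% of all genes called.

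In resting DKO Treg 18 members rose and 15 fell in the fit blocked on the run, beside 61.2% of all genes. Without the block 8 passed when either DKO library was left out and 19 when WT Treg replicate 1 was, and 24 passed without the 3 libraries. Dnajb4 was the most changed of the 13: without the 3 libraries its log2 difference was -3.06 (adjusted p = 3.43e-06).

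The same genes stood apart after stimulation. Dnajb4 was at 3.67 and 2.82 FPKM in stimulated DKO Treg against 50.4 and 38.4 in stimulated WT Treg (-3.41 ± 0.77, adjusted p = 0.00405). Dnajb2 was at 5.36 and 5.99 against 23.4 and 20.6 FPKM (-1.78 ± 0.45, adjusted p = 0.00813), and Hspb1 at 0.281 and 0.195 against 2.71 and 1.88 (-1.40 ± 0.24, adjusted p = 0.000598). None of these genes overlapped between the groups, which again had 2 libraries each. Dnajc15 was at 58 and 68.3 FPKM against 14.1 and 16.8 (1.96 ± 0.58, adjusted p = 0.0192), and Hspd1 at 163 and 170 against 71.2 and 81.3 (1.12 ± 0.24, adjusted p = 0.0029). The resting and the stimulated comparison share no library, but they share their runs.

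In stimulated cells 8 members rose and 9 fell, beside 32.7% of all genes, and in the blocked fit 19 rose and 14 fell, beside 62.7%. Of the mitochondrial members 3 of 8 rose (Hspd1, Dnajc15 and Dnaja3, the last by 0.99), all 8 had a positive difference, and the median was 0.67 beside 0.00 over all genes. A positive difference was held by 5756 of all 11532 genes. Dnajb11 and Hsp90b1 of the ER rose by 1.12 and 0.90. Among the J-proteins of the ER membrane that face the cytosol, 2 of 4 fell, Dnajb14 by 0.94 and Dnajc18 by 0.55. The count was 5 without WT Treg stim replicate 1, 6 without DKO Treg stim replicate 2 and 25 without the 3 libraries with B cell markers. Of the stress-inducible members 0 rose and 2 fell, and Hspa1a (1.06, adjusted p = 0.0145) and Hsp90aa1 (0.58, adjusted p = 0.0469) also rose without the 3 libraries.

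**Figure D3:**
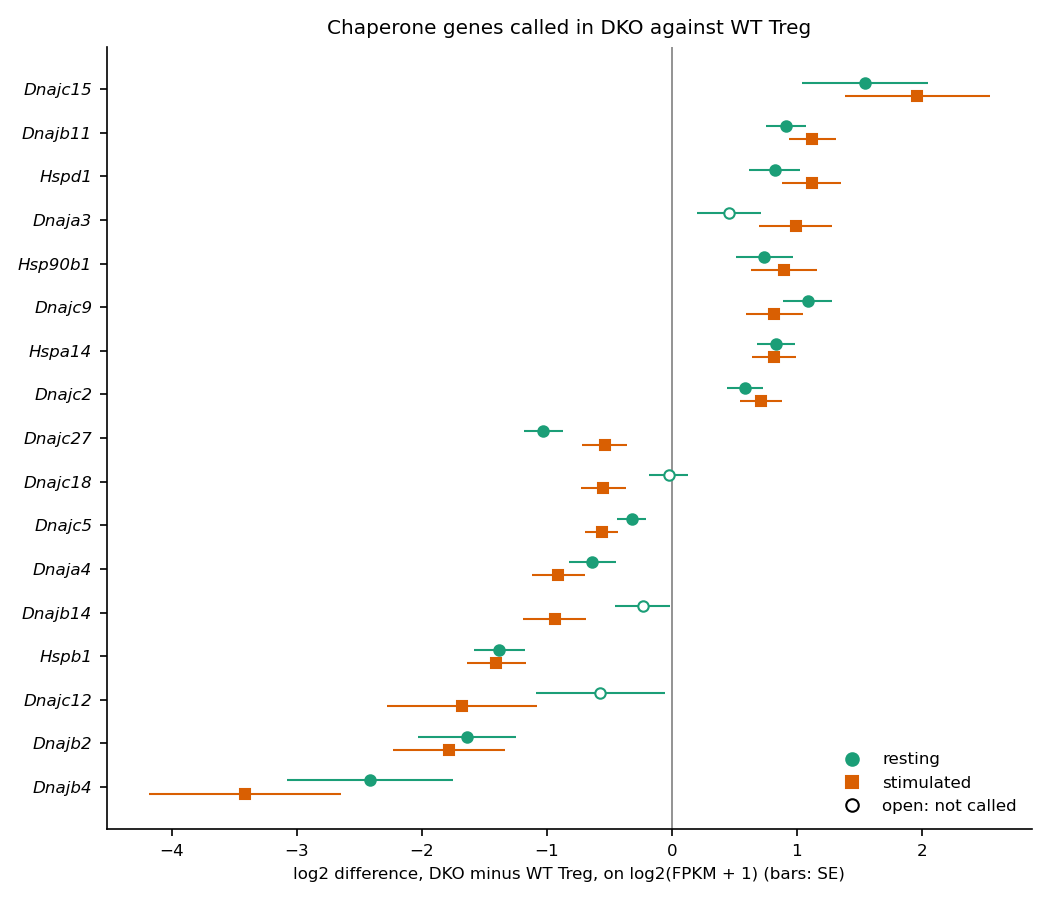
Log2 difference of DKO from WT Treg on the log2(FPKM + 1) scale, with its standard error, for the 17 members called in resting cells, in stimulated cells or in both. Filled points passed the test and open points did not. Dnajb4 lay farthest below 0 in both states, at -2.42 and -3.41, and Dnajc15 farthest above, at 1.55 and 1.96.

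Within the ER set the members did not move one way. Dnajb9, a J-protein that sends unfolded protein out of the ER for breakdown, stood at 22 and 18.1 FPKM in resting DKO Treg of runs 3 and 4 and at 51.6 and 38.6 in WT Treg of those runs, lower in each. It fell by 1.06 ± 0.13 on the log2 scale in the fit blocked on the run (adjusted p = 2.81e-05) and did not pass without the block (adjusted p = 0.181). Dnajc3, a J-protein co-chaperone of Hspa5 that also curbs the kinase Eif2ak3, stood at 34.5 and 36.5 against 23.9 and 21.4 FPKM and rose by 0.55 ± 0.16 in the blocked fit (adjusted p = 0.0117). Hspa5 itself, at 332 and 380 FPKM at rest, fell by 0.43 in the blocked fit against WT Treg at 519 and 464 (adjusted p = 0.0479). After stimulation it stood at 677 and 979 against 536 and 498 and was higher by 0.65 (adjusted p = 0.00758), so its direction differed between resting and stimulated cells. In Tconv of the same runs Hspa5 lay below WT Treg at rest and above it after stimulation. Resting DKO Treg lay between Tconv and WT Treg, and stimulated DKO Treg lay above both. The part of the mix of cells in this was not tested. With all libraries none of these 3 genes passed without the block in either state. Without the 3 libraries with B cell markers and without the block, Dnajb9 passed at rest (-1.44, adjusted p = 0.00969), and Dnajc3 and Hspa5 passed at rest (adjusted p = 0.0312 and 0.0375) and after stimulation (adjusted p = 0.0116 and 0.0425). Dnajc12, a J-protein that serves the folding of aromatic amino acid hydroxylases, stood at 4.08 and 2.63 FPKM in stimulated DKO Treg against 10.6 and 15.3 (-1.68 ± 0.60, adjusted p = 0.0446), without overlap.

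Outside the family, 20 genes of the ER stress response were listed. The counts in this paragraph stand beside 33% of all genes called at rest and 32.7% after stimulation. In resting DKO Treg 9 rose and 2 fell, with a median of 0.72, beside 0.06 over all genes. Sdf2l1 rose by 1.87, Manf by 0.91, Canx, a lectin chaperone of the ER, by 0.82 and Atf6, a sensor of unfolded protein, by 0.77. After stimulation 9 rose and 1 fell, with Sdf2l1 at 2.5, Atf6 at 2.06 and Edem1 at -0.66. Of the 10 mitochondrial import genes 4 rose at rest: Timm50 by 0.94, Tomm40 by 0.60, Timm23 by 0.58 and Grpel1, which resets Hspa9, by 0.56. Hsf1, the heat shock factor, stood at 19.9 and 24 FPKM in resting DKO Treg against 35.6, 36.5, 55.4 and 48.8 in WT Treg, without overlap (-0.96 ± 0.19, adjusted p = 0.00168), and at -0.85 ± 0.22 after stimulation (adjusted p = 0.0089). Of the 13 immediate early genes 6 fell and 1 rose in resting DKO Treg, and the part of cell handling in the fall of Dnajb4 and Hspb1 was not tested.

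The p65KO Treg were compared with WT Treg of the same runs to ask what p65 alone contributes. The inducible Hsp70 genes were lower in each resting run. Their sum was 0.366 FPKM against 17.9 in run 1, 26.4 against 99.2 in run 2 and 53.7 against 65.7 in run 4. As a ratio the gap was widest in run 1 and narrowest in run 4, and the groups overlap when the runs are put together. After stimulation, in the 1 pair of libraries, the order was the other way, at 149 FPKM in p65KO against 64.4 in WT Treg of run 4.

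Without the block 0 of 58 members passed limma's test, beside 0.0434% of all genes. At an unadjusted p under 0.05 there were 5 members and 1130 genes. In the blocked fit 5 members fell and 0 rose (8.62% of those tested), beside 8.82% of all genes. The shares were alike. Over all genes 816 rose and 201 fell in that fit. Size factors were higher by 0.11 in log2 in p65KO Treg, and the part of this in the directions was not tested. The 5 members that fell were Hspa1b (-1.73 ± 0.37, adjusted p = 0.0228), Hspa1a (-1.49 ± 0.33, adjusted p = 0.0238), Dnajb4 (-0.77 ± 0.16, adjusted p = 0.0199), Hspb1 (-0.56 ± 0.13, adjusted p = 0.0258) and Dnajb9, a J-protein of the ER (-0.44 ± 0.11, adjusted p = 0.0287). The first 4 are all stress-inducible members. The 13 immediate early genes were lower as well, with 2 of 13 above 0, a median of -0.54 (-0.36 in the blocked fit) and 0 and 2 falls called, and their part in the fall was not tested. Of all 11532 genes, 7518 were above 0, with a median of 0.10 (0.07 in the blocked fit). Dnajb4 stood at 5.35, 28 and 19.8 FPKM in p65KO Treg against 6.99, 47.7 and 41.6 in WT Treg of runs 1, 2 and 4, lower in each run.

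Both libraries of run 1, where the ratio was widest, are among the 3 with B cell markers. Without the 3 libraries and with the run as a block, Hspa1b stayed called at -1.07 (adjusted p = 0.0377) and Dnajb4 at -0.95 (adjusted p = 0.0249). Hspa1a at -0.96 (adjusted p = 0.0612), Hspb1 at -0.45 (adjusted p = 0.0739) and Dnajb9 at -0.50 (adjusted p = 0.0558) missed the threshold, and 3 members passed in all. Of the 8 stress-inducible members 7 were lower in run 1, 8 in run 2 and 5 in run 4, with medians of -0.27, -0.65 and -0.11. Of all 11532 genes, 5504, 4834 and 3741 were lower in these runs, with medians of 0.01, 0.04 and 0.13. In the stimulated pair of run 4, 7 of the 8 stress-inducible members were higher, with a median of 0.20, beside 7220 of 11532 genes higher and a median of 0.14 over all genes, from 1 library a side and with no test.

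**Figure D4:**
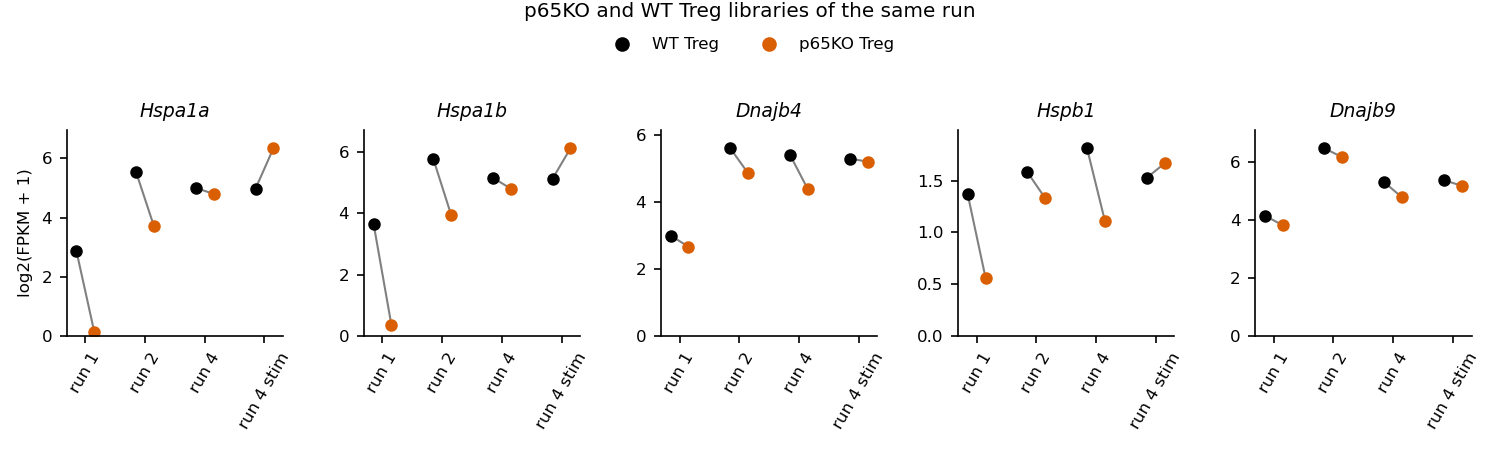
Level of the 5 members called in p65KO Treg with the run as a block, as log2(FPKM + 1) on the vertical axis, in WT (black) and p65KO (orange) libraries joined within runs 1, 2 and 4 and in the stimulated pair of run 4. All 5 were lower in p65KO in each resting run, and Hspa1a, Hspa1b and Hspb1 were higher in p65KO after stimulation.

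The c-RelKO Treg were compared with WT Treg in the same way. Dnajc7, a J-protein that passes clients between Hsp70 and Hsp90, stood at 42.7 and 43.3 FPKM in resting c-RelKO Treg and at 130, 85.1, 71.6 and 77.7 in WT Treg replicates 1 to 4. Both knockout libraries lay below all 4 WT libraries. Dnajc7 fell by 1.03 ± 0.23 on the log2 scale (limma, adjusted p = 0.0105), and by 0.85 (adjusted p = 0.0287) without the 3 libraries. Dnajc5 fell from 60.8 to 77.4 FPKM in WT Treg to 50.1 and 52.5 (-0.40 ± 0.11, adjusted p = 0.0365), but missed the threshold without the 3 libraries (adjusted p = 0.0597).

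These were the only calls without the block, 0 up and 2 down of 58, beside 10.6% of all genes. The count was 0 without either c-RelKO library and 1 without WT Treg replicate 3 or replicate 4. In the fit blocked on the run, 6 rose and 10 fell, beside 41.6% of all genes. Those that rose were Dnajc15 (1.12), Hspa5 (0.84, adjusted p = 0.00253), Dnajb9 (0.71), Hspb11 (0.64), Hspe1 (0.52) and Hsp90ab1 (0.48). Hspa5 stood at 951 and 769 FPKM in c-RelKO Treg beside 519 and 464 for WT in runs 3 and 4, and at 724 against 498 in the stimulated pair of run 4. One of the c-RelKO libraries, replicate 2, carried the erythroid and B cell markers. Of the 24 tested heat shock factors and co-chaperones, 3 fell and 0 rose, among them Hsf1, from 35.6 to 55.4 FPKM in WT Treg to 22.7 and 27.5 (-0.77 ± 0.19, adjusted p = 0.0196).

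**Figure D5:**
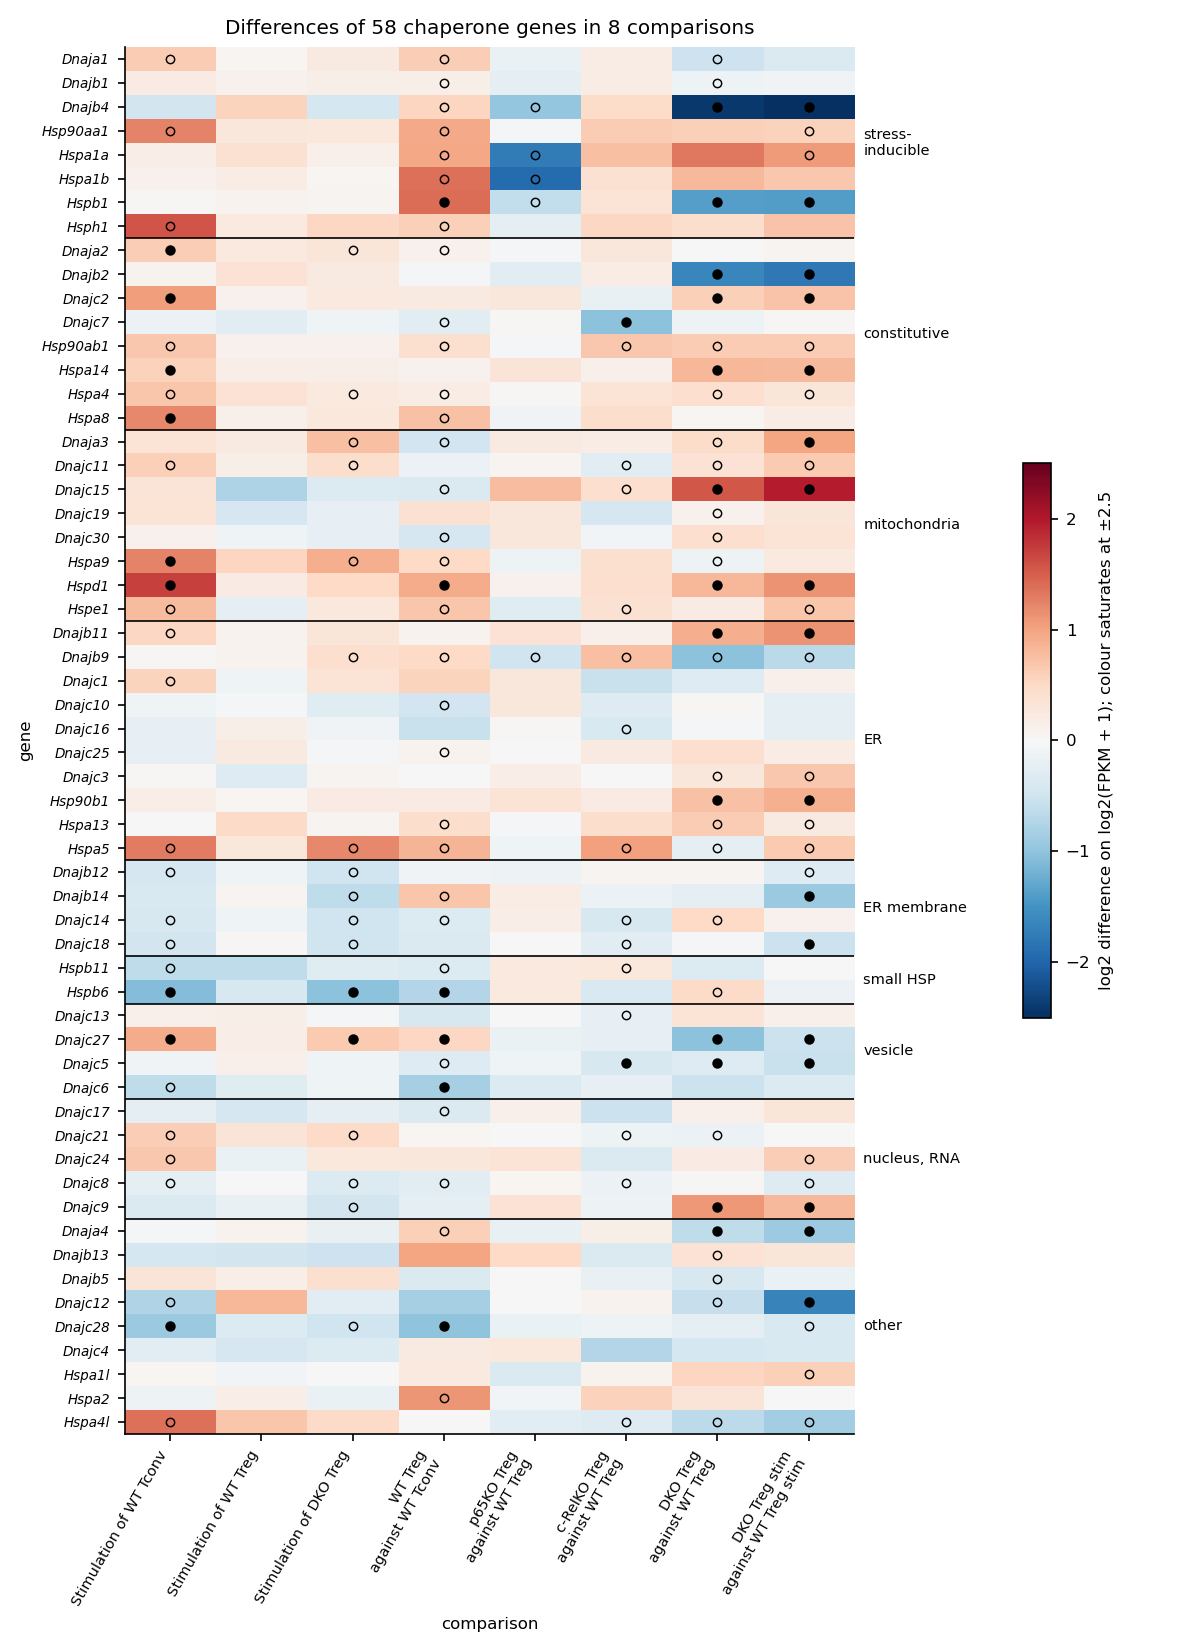
Log2 difference of each of the 58 tested members (rows, by role) in 8 comparisons (columns), on the log2(FPKM + 1) scale with colours that stop at ±2.5. Filled circles mark members called without the block and open circles those called with the run as a block alone. DKO Treg against WT Treg had 13 filled circles at rest and 17 after stimulation, and stimulation of WT Treg had 0.

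The TAT-Cre libraries had 1 library per condition, so their differences have no replicate check and no test. Among 10797 genes that reached 1 FPKM in any of the 4, 57 were members, and a difference was counted when it reached 1.5-fold in FPKM + 1. Hsph1 was at 343 FPKM in control Tconv, 230 in control Treg, 174 in the library labelled FoxP3 del and 171 in the library labelled NF-kB del, each above the highest of the other 21 libraries (113). The sum of Hspa1a and Hspa1b, at 14.8, 10.7, 17.5 and 16.5 FPKM in the same order, lay below 20 of the other 21 libraries. The numbers of these libraries follow on from run 4, and the set was kept apart because the labels name it as the TAT-Cre group, so a difference in level from the other libraries cannot be told apart from that procedure. The mean log2(FPKM + 1) of the 8 B cell genes was 0.32 in control Tconv and 1.93, 2.68 and 1.93 in control Treg and the libraries labelled FoxP3 del and NF-kB del, and that of the 5 erythroid genes was 5.27 in the last. The part of such cells in the differences below was not tested.

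Control Treg were higher than control Tconv for 14 members, beside 27.3% of genes, and lower for 8, beside 6.04%. The lower ones were Hspa5 (661 against 1068 FPKM), Hspa8 (1183 against 1949), Hspa9 (189 against 296), Hspd1 (146 against 240), Hspe1 (106 against 180), Dnajc15 (66.7 against 114), Dnajc21 and Dnajc27. The library labelled FoxP3 del was higher than control Treg for 4 members (Dnajb13, Dnajc9, Hspa1a and Hspa2), beside 8.55% of genes, and lower for 0, beside 1.4%. The library labelled NF-kB del was higher for 2 (Hspa1a and Hspb6), beside 5.9%, and lower for 2, beside 2.4%. The lower pair were Dnajb4, at 6.70 against 12.7 FPKM, and Hspe1, at 67.2 against 106. Rel stood at 38.7 FPKM in that library against 171 in control Treg. Rela stood at 123.7 against 124.6, so Rela did not check that label.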

How the data were processed

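RNA-seq libraries from 25 samples of Treg or Tconv were made with a TruSeq kit, per the labels' protocols. Per the submitters' processing notes, the tools were bcl2fastq, TopHat and Cufflinks with build mm9. Versions and settings were not given in the sources used here. The authors deposited 1 table of FPKM values per gene and library, which are normalized for length and depth and are not counts, so no count test was run. The tables held 23235 symbols each; 250 with a status other than OK in any library were left out. The depths given are implied by the FPKM values and their upper confidence bounds, summed over genes. Fragment numbers worked out in this way were not whole for all genes with low values.

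Tests used limma 3.58.1 (R 4.3.3) on log2(FPKM + 1), with a trend, 21 libraries in 10 groups and 11 residual degrees of freedom. A gene needed 1 FPKM in 2 or more libraries, which left 11532. Called means a Benjamini-Hochberg adjusted p under 0.05 over all of these genes, two-sided. The members, their role lists, the lists of other genes and the tests were chosen with earlier results of these data known.

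Runs of consecutive library numbers stood for a possible batch, since the labels do not name one. Deviations from the group means had a mean correlation of 0.432 over 51 pairs of libraries of the same run (lowest 0.036) and of -0.209 over 105 pairs of different runs. The alternatives were the run as a block, size factors, a pseudocount of 0.1, no filter, leaving out each library and leaving out 3 libraries (WT Treg and p65KO Treg replicate 1, c-RelKO Treg replicate 2) with B cell markers or a doubtful label. The last together with the run block was added after seeing the data. Genes were named by a rule: the stress-inducible list, other role members with a mean of at least 5 FPKM, the 12 largest called differences in each direction per comparison, and up to 4 genes of each list of non-members per comparison. The fit was also run on simulated data with independent spread between libraries and no run differences, so it does not cover such differences. Promoters came from RefSeq tables on GRCm38.p6 and were matched by symbol for 57 of 71 members.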

Additional observations from a re-analysis of the deposited data

Results flagged for a closer look

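Levels in the 4 resting WT Treg libraries were checked for 1 library far from the other 3, over the 45 members looked at in this way, and chance alone would flag about 1 in 20. Replicate 1 was lowest for Dnajb1 at 46.9 FPKM, for Dnajb2 at 9.57 FPKM and for Dnajb4 at 6.99 FPKM, and highest for Dnajc30, a J-protein of mitochondria, at 13.7 FPKM. All 4 concern the same library, which is the WT library of run 1 and has raised B cell markers (mean log2(FPKM + 1) of 2.92); their part in these levels was not tested.

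The stimulation response of Hspd1 differed between Treg and Tconv by -1.51 in log2(FPKM + 1) in the test of the difference itself, with both stimulated Tconv libraries above both resting ones and overlapping levels in Treg. No gene at all was called in stimulated WT Treg.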

How the results depend on the processing

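Counts of members called are given in the order stimulation of Tconv, stimulation of DKO Treg, Treg against Tconv, p65KO, c-RelKO, resting DKO, stimulated DKO, response of Treg minus Tconv, and response of DKO minus WT Treg. Without a block they were 9, 2, 6, 0, 2, 13, 17, 1 and 0. With the replicate block (the run) they were 29, 17, 36, 5, 16, 33, 33, 16 and 3, and with the block and without the 3 libraries 30, 20, 36, 3, 18, 37, 36, 17 and 4. Without the 3 libraries and without a block the count changed by over 1.5 times for stimulation of Tconv (16), stimulation of DKO Treg (5), Treg against Tconv (21), c-RelKO (1), resting DKO (24) and Treg minus Tconv (3). Members that differed between runs went from 46 to 27. Both libraries of run 1 are among the 3, so the 27 come from a test over fewer runs. The share of all genes beside the 27 was not worked out. With size factors the c-RelKO count was 1 and that of Treg minus Tconv 0; with no filter the latter was also 0. With 1 library left out, counts ranged from 3 to 4 (stimulation of Tconv), 0 to 1 (stimulation of DKO Treg), 2 to 15 (Treg against Tconv), 0 to 2 (c-RelKO), 8 to 19 (resting DKO), 5 to 13 (stimulated DKO) and 0 to 1 (Treg minus Tconv), and stayed at 0 for p65KO, for stimulation of WT Treg and for DKO minus WT Treg.

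Of the 50 named gene results called without the block, none reversed, and all 50 kept their call with the replicate block. A pseudocount of 0.1 kept 49, size factors 44 and no filter 41, and with 1 library left out 146 fits kept and 102 lost the call. Calls held under every alternative for 15 results, Dnajb4, Dnajb11 and Hspd1 in stimulated DKO Treg and Hspd1 in stimulated Tconv among them. The size factors came from genes above 1 FPKM in every library of the fit. On the log2 scale they differed by -0.19 in c-RelKO, -0.19 in stimulation of DKO Treg, 0.11 in p65KO and -0.12 in DKO minus WT Treg. Levels were divided by them, so the log2 differences of genes moved the opposite way. With 1 or 2 libraries in most groups, a difference that missed the threshold is not shown to be absent. The cause of the changes with the block was not tested.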
